A study of Mus musculus with 9 samples.

Results

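Small nucleolar RNA host genes are noncoding genes whose introns carry small nucleolar RNAs (snoRNAs). Here they are 9 Snhg genes (Snhg1, Snhg3, Snhg5, Snhg6, Snhg8, Snhg11, Snhg12, Snhg15 and Snhg18) and Gas5, the growth arrest-specific host gene. These 10 members were taken by gene symbol from the 38911 genes of a transcript count table of mouse hippocampus, after counts were summed per gene. Libraries were made from total RNA depleted of ribosomal RNA. Adult BALB/c mice formed 3 groups of 3: a sham operation (table label CTL), cecal ligation and puncture only (CLP, an abdominal sepsis model, table label SAE), and CLP with 200 mg/kg of Cuscuta chinensis flavonoids (table label CCLF). No source used here states how long after the operation tissue was collected. The members were chosen by their counts in the libraries labelled CLP and sham, so their values in that contrast are a description and carry no p-values.

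Most snoRNAs guide the chemical modification or trimming of ribosomal RNA, and in mammals they are released from introns after the host transcript is spliced. Box C/D snoRNAs direct methylation of ribose and box H/ACA snoRNAs direct pseudouridine formation. The spliced host RNA is a by-product in many cases: it is exported, engaged by ribosomes and removed by nonsense-mediated decay, the pathway that degrades RNAs with premature stop codons. Several host genes start transcription at a pyrimidine-rich tract, as ribosomal protein genes do. Gas5 RNA is also known to bind the glucocorticoid receptor, and Snhg11 is abundant in neurons.

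Library totals ran from 4626519 to 4895474 counts. Lcn2, an acute-phase gene that inflammation induces, had 13246 to 14822 counts in the libraries labelled sham and 6 to 14 in those labelled CLP, and the astrocyte gene Gfap had 117 to 143 and 11 to 25. These directions go against what the labels would lead one to look for. An exchange of the sham and CLP labels or columns could not be told apart from the files, and it would turn every direction below, so each direction belongs to libraries as labelled. The 3 libraries labelled CLP plus extract varied less among themselves than counting error. Over the 5113 tested genes with a mean of 10 to 200 counts, their median variance relative to counting error was 0.298. Counting error alone gives a median of 0.693, and the groups labelled sham and CLP gave 1.03 and 1.09. That group is therefore shown as values only, and it enters no fit except an alternative of all 9 libraries. The 6 neuronal markers summed to 6110 to 6330 CPM (counts scaled to library size, edgeR's usual unit) under the sham label and 6950 to 7030 under the CLP label. Slc17a7 and Gad2 made up nearly all of that sum and were the 2 of 5 tested that passed as higher (log2 folds 0.16 and 0.13), while Snap25, Syn1 and Gad1 had few counts and did not pass (−0.3, −0.28 and −0.22). The 4 oligodendrocyte markers, all higher by test, summed to 233 to 252 and 513 to 573 CPM, and the 5 microglial markers, 3 tested and all 3 higher, to 17.5 to 26.2 and 143 to 152 CPM with P2ry12 at 0. The 4 neutrophil markers, 2 tested and both lower, summed to 45.9 to 59.8 and 1.03 to 2.33 CPM with 1 at 0. The 4 meningeal markers, 3 of them higher, summed to 65.1 to 72.5 and 101 to 183 CPM. Of the 4 astrocyte markers 1 was higher and 2 were lower, with sums of 3210 to 3470 and 3400 to 3470 CPM. The part of these cell types in the host gene values was not tested, and fewer cells of a type and less RNA per cell cannot be told apart in bulk tissue.

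RefSeq starts are shown for some host genes with lower and some with unseparated levels. Those of Snhg3 and Snhg15, both lower, and the upstream start of Gas5 are not printed. The printed lines are therefore not a full comparison of the members. RefSeq promoter sequences (GRCm38.p6) were found for 9 of the 10 members, with 2 starts for Gas5. Each line runs 5′ to 3′ on the gene's strand, from 45 bases before the annotated start to the 25th base of the transcript. Capitals mark the letters TATA lying 40 to 21 bases before the start, and an unbroken run of at least 5 C or T touching the bases from 3 before to the 4th of the transcript. The stretches are chr19:8723442-8723511 (plus strand, Snhg1), chr9:88522873-88522942 (minus strand, Snhg5), chr3:123508312-123508381 (minus strand, Snhg8), chr4:132308633-132308702 (plus strand, Snhg12), chr1:161035121-161035190 (plus strand, the downstream start of Gas5), chr2:158375668-158375737 (plus strand, Snhg11) and chr15:32244638-32244707 (minus strand, Snhg18).
Snhg1: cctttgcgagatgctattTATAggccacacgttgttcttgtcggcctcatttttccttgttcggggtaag
Snhg5: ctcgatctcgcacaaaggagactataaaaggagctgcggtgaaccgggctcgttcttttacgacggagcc
Snhg8: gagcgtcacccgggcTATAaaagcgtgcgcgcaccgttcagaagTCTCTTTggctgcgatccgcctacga
Snhg12: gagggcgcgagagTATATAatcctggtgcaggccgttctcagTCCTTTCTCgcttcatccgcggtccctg
Gas5: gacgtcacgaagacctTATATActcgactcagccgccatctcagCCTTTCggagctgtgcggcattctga
Snhg11: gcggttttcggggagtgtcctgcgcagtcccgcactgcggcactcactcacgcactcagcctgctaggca
Snhg18: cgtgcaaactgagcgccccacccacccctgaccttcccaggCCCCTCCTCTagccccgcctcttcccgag

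TATA lay in the window in 4 of the 9 members (Snhg1, Snhg8, Snhg12 and the downstream start of Gas5), against 5.34% of the 32851 mouse promoters of the same length in the table. TATA reads the same on both strands. In Snhg5 the same letters began 23 bases before the start and ended past the window. A run of at least 5 C or T touched the start in 5 members (Snhg3, Snhg8, Snhg12, Snhg18 and Gas5), against 26.1% of promoters, and 3 members had both features, against 1.43%. Snhg5, Snhg11 and Snhg15 had neither feature within these windows, and nor did the upstream start of Gas5. The E-box letters CACGTG, which read the same on both strands, were in the 300-base promoter of 1 member (Snhg15, 7.15% of promoters). TGACG, searched on both strands, was in those of 5 (20.8%). These are matches of letters at annotated starts, and start use was not measured.

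Of the tested members, Snhg5, Snhg1 and Snhg3 had the largest differences between labels. Snhg5 had 292, 342 and 314 counts in the libraries labelled sham, 109, 111 and 124 in those labelled CLP, and 168, 172 and 156 in those labelled CLP plus extract. The lowest sham-labelled library was thus far above the highest CLP-labelled one. Its level was 66.9 ± 4.01 CPM (mean ± SD, n = 3) under the sham label and 24.2 ± 1.31 under the CLP label, a log2 fold of −1.48 ± 0.11 (CLP minus sham, ± SE). Snhg1, which hosts 8 annotated snoRNAs that include Snord22, had 230, 245 and 253 counts in sham-labelled and 106, 107 and 115 in CLP-labelled libraries. It stood at 51.4 ± 1.24 and 23.1 ± 0.66 CPM (n = 3, log2 fold −1.16 ± 0.11), and the libraries within each label differed little. Snhg3, host of the box H/ACA snoRNAs Snora73a and Snora73b, had 113, 120 and 119 counts against 63, 54 and 41 (24.8 ± 0.189 and 11.1 ± 2.47 CPM, n = 3, log2 fold −1.17 ± 0.17). Its spread was wider in the CLP-labelled libraries, and the groups still did not overlap.

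Snhg15, Snhg12 and Snhg8 were lower by smaller amounts. Snhg15 had 48, 64 and 64 counts under the sham label and 33, 27 and 42 under the CLP label (12.4 ± 1.65 and 7.16 ± 1.45 CPM, n = 3, log2 fold −0.8 ± 0.21). Snhg12, host of 4 annotated snoRNAs that include Snora44 and Snora61, had 361, 385 and 393 counts against 231, 228 and 268 (80.4 ± 1.5 and 51.1 ± 3.74 CPM, n = 3, log2 fold −0.66 ± 0.09). Neither gene had overlapping groups. Snhg8, host of Snora24, had 313, 356 and 294 counts against 258, 243 and 280 (68 ± 6.55 and 54.9 ± 2.9 CPM, n = 3, log2 fold −0.32 ± 0.1). Its groups lay close together, and it missed the threshold without sham replicate 2 (log2 fold −0.26) or without CLP replicate 2 (−0.27).

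Gas5 and Snhg6 were thinly counted. Gas5 had 18, 21 and 24 counts in sham-labelled libraries and 16, 9 and 15 in CLP-labelled ones (4.44 ± 0.536 and 2.81 ± 0.774 CPM, n = 3, log2 fold −0.67 ± 0.33). The groups did not overlap but nearly met, and the gene did not pass the threshold. The table lists 8 RefSeq transcripts of Gas5. Only 2 of them had any count, and 1 transcript held 150 of the 152 counts over the 9 libraries, so these values may not stand for the whole gene. The other 9 members had 1 transcript each. Snhg6, host of Snord87, had 2 to 4 counts per sham-labelled library and 0 to 2 per CLP-labelled library and was not tested. Its 10 counts against 3 give a ratio of 3.28 (95% exact counting interval 0.845 to 18.6), an interval that covers counting error only and spans a ratio of 1. Gas5 overlaps Zbtb37 on the opposite strand, and Snhg6 overlaps Mcmdc2 likewise. No source used here states whether counting used strand, so reads of these partners could not be told apart.

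Snhg11 and Snhg18 did not separate the labels. Snhg11 held 95.7% of all member counts in these 6 libraries, with 24290, 30697 and 28413 counts under the sham label and 26366, 23792 and 24631 under the CLP label. The groups overlapped, since sham replicate 1 lay among the CLP-labelled libraries. Its level was 5880 ± 552 and 5260 ± 285 CPM (n = 3, log2 fold −0.17 ± 0.08), and without sham replicate 1 the log2 fold was −0.24 and passed the threshold. Snhg18, host of Snord123, had 28, 30 and 22 counts against 33, 24 and 38 (5.65 ± 0.931 and 6.67 ± 1.39 CPM, n = 3, log2 fold 0.23 ± 0.26). It was the only tested member with a positive fold. The other 9 members summed to 1407, 1567 and 1485 counts under the sham label and to 850, 803 and 925 under the CLP label.

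**Figure D1:**
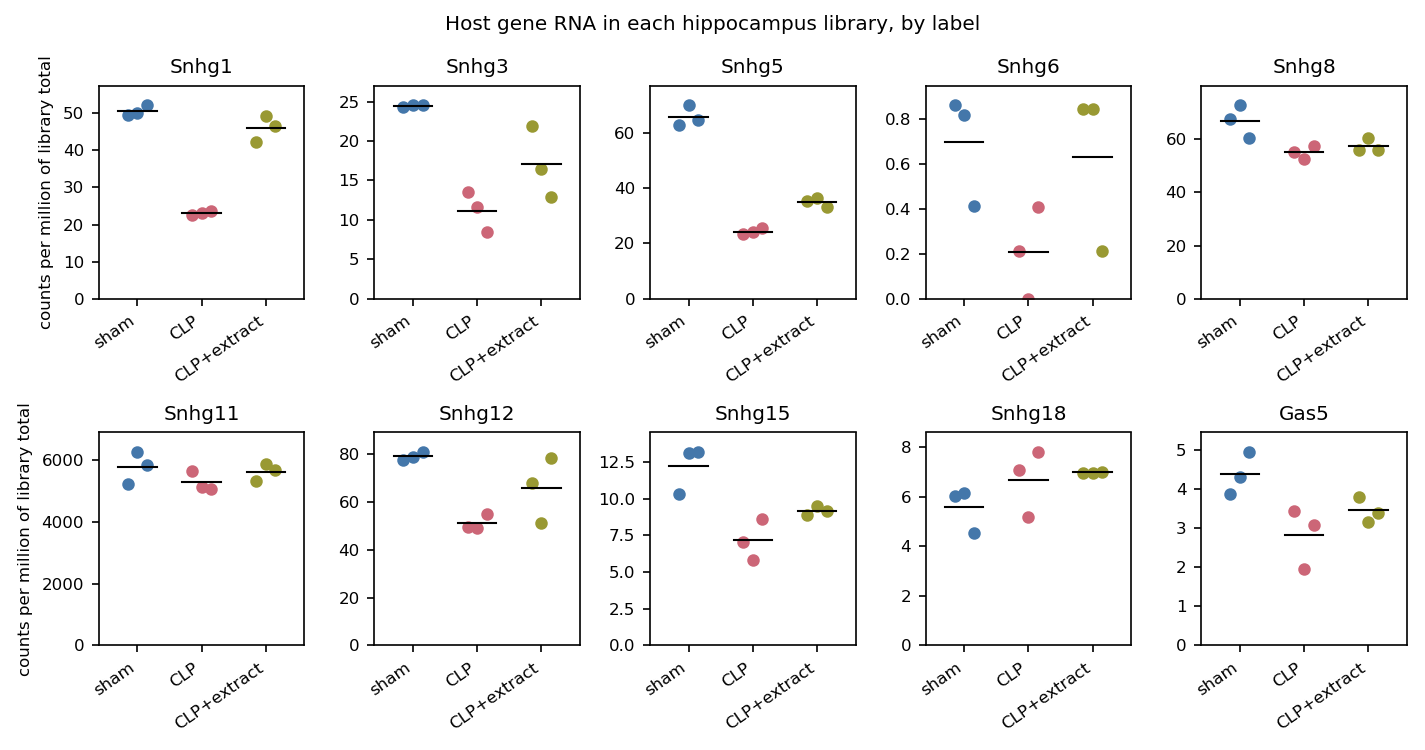
Level of each member as CPM of the library total (y axis, from 0, 1 panel per gene) in the 3 libraries of each label (points), with the mean as a line. Snhg5, Snhg1 and Snhg3 separate the sham and CLP labels widely, while the points of Snhg11 and Snhg18 overlap.

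In the fit over all genes, 6 of the 9 tested members passed an adjusted p of 0.05 as lower under the CLP label and 0 as higher. Over all 8213 tested genes 23.9% were called lower and 23.7% higher. Since the members were proposed from this contrast, nothing is read from their count. Of the tested members 7 had CLP-labelled libraries wholly below sham-labelled ones, where 27.8% of all tested genes did, and 3 both passed the threshold and were more than 2-fold lower, where 8.92% of all tested genes met both conditions. The median log2 fold was −0.67 over the tested members and 0 over all tested genes. Snhg6 is in none of these counts.

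The spliced transcripts of 8 members had a matched GENCODE length, which allows levels to be set per kilobase. Under the sham label the order, as CPM per kilobase ± SD (n = 3), was Snhg12 at 133 ± 2.47, Snhg8 at 87.6 ± 8.44, Snhg1 at 84.9 ± 2.05, Snhg5 at 66.6 ± 3.99, Snhg3 at 56.8 ± 0.433, Snhg15 at 20.9 ± 2.79, Snhg18 at 3.8 ± 0.626 and Snhg6 at 1.77 ± 0.634. Snhg8 and Snhg1 did not differ beyond their spread, as their libraries ran from 78.9 to 95.8 and from 83 to 87.1. Under the CLP label Snhg12 stood at 84.4 ± 6.17 and Snhg8 at 70.8 ± 3.73, Snhg1 at 38.1 ± 1.09, Snhg3 at 25.5 ± 5.65 and Snhg5 at 24.1 ± 1.3. The last 2 overlapped there, with Snhg3 libraries at 19.4 to 30.6 and Snhg5 libraries at 23 to 25.5. Lengths of the counted Snhg11 and Gas5 transcripts were not matched, so these genes were not placed in the order.

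In the libraries labelled CLP plus extract, 9 of the 10 members, the untested Snhg6 among them, had a mean between those of the other labels. That held for 83.5% of all tested genes and for 99.1% of the genes called between the sham and CLP labels. Nothing is therefore read from this count. Snhg1 had 200, 234 and 219 counts (46.1 ± 3.62 CPM, n = 3), near the sham-labelled level and above every CLP-labelled library. Snhg5 stood lower in that range at 35 ± 1.76 CPM, with all 3 libraries above the CLP label and below the sham label. Snhg3 had 104, 78 and 61 counts and overlapped the CLP-labelled libraries, and Snhg12 spread widely with 322, 242 and 369 counts. Snhg8 had 266, 286 and 264 counts, close to the CLP label. Snhg15 had 42, 45 and 43 counts and Gas5 had 18, 15 and 16. Snhg11 had 25242, 27835 and 26747 counts, within the range of the other labels. Snhg18 had 33 counts in each of the 3 libraries and was the member outside the other means, at 6.99 CPM. Snhg6 had 4, 4 and 1 counts.

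The snoRNAs inside the members have entries of their own. An entry was placed inside a member when its position fell within the span of that gene. Whether it lies in an intron or on the same strand was not checked, so these counts may not be independent of the host counts. RefSeq places 30 snoRNA entries inside the 10 members, and 5 of them had 0 counts in every library. Their sum was 366, 399 and 381 counts under the sham label, 324, 275 and 294 under the CLP label, and 340, 336 and 335 under the CLP plus extract label. The sham and CLP labels did not overlap (79.6 ± 1.66 and 63 ± 5.46 CPM of the library total, without further scaling, n = 3). Of all tested genes 27.8% had CLP-labelled libraries wholly below sham-labelled ones, so a lack of overlap was common. The entries inside Gas5 made up the largest part: 164, 187 and 158 counts under the sham label and 124, 124 and 147 under the CLP label (35.4 ± 2.83 and 27.8 ± 2.03 CPM, n = 3). That is several times the count of the Gas5 entries themselves. Those inside Snhg1 had 53, 68 and 55 counts against 37, 31 and 33 (12.2 ± 1.46 and 7.13 ± 0.682 CPM, n = 3), again with no overlap. Those inside Snhg3 had 10, 32 and 26 counts against 8, 10 and 6, and sham replicate 1 overlapped the CLP-labelled libraries. The 4 entries inside Snhg12 had 59, 38 and 46 counts against 54, 33 and 29 and overlapped, although Snhg12 itself did not. The 2 inside Snhg11 had 73, 66 and 84 counts against 92, 71 and 72 and overlapped. The entry inside Snhg15 had 5, 6 and 9 counts against 3, 3 and 0, while the 2 inside Snhg5 had 2, 2 and 3 against 6, 3 and 6. Of these entries 10 were abundant enough to test and 1 passed, where 47.6% of all tested genes passed in either direction. The entry that passed is a snoRNA inside Gas5 that RefSeq lists as LOC115487638 (log2 fold −0.76 ± 0.28, adjusted p = 0.0299). It was singled out after its value was seen, its groups overlapped, and it did not pass without sham replicate 1 (adjusted p = 0.075), without sham replicate 2 (0.185) or without CLP replicate 1 (0.161). It did not pass with the DESeq2 Wald test either (0.0943). Libraries of this kind can capture short RNAs poorly, so these counts describe what was captured.

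**Figure D2:**
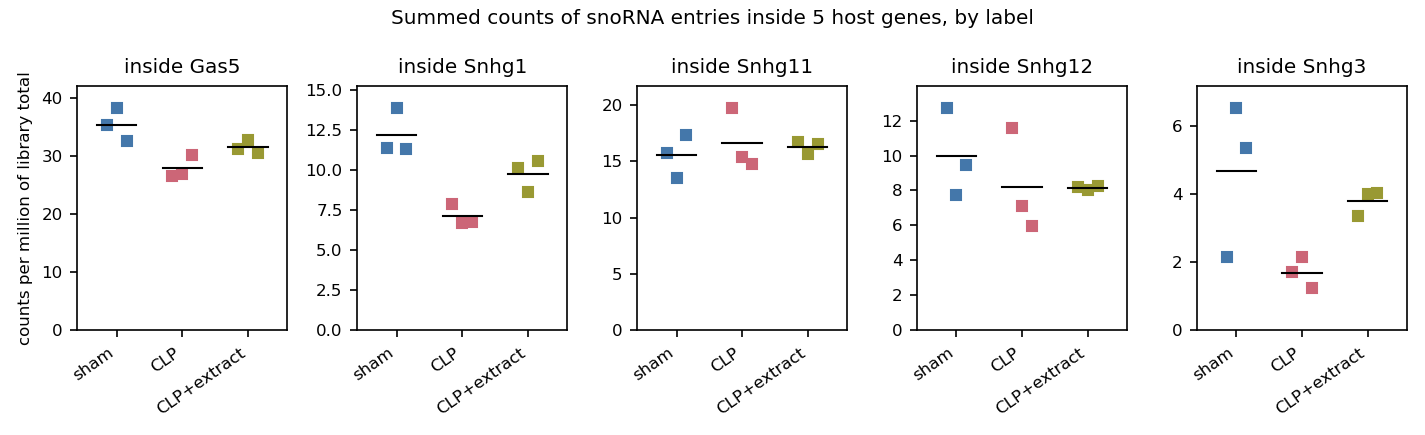
Summed counts of the snoRNA entries inside 5 member genes, as CPM of the library total (y axis, from 0), for the 3 libraries of each label (squares) with the mean as a line. The sums inside Gas5 and Snhg1 separate the sham and CLP labels, and those inside Snhg11, Snhg12 and Snhg3 overlap.

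Noncoding host genes that are not members were examined from a list of 11, of which 7 were tested: 3 were lower under the CLP label, 1 was higher and 3 did not pass. Zfas1, a noncoding host gene named after its antisense position, fell with 470, 478 and 571 counts under the sham label and 247, 236 and 249 under the CLP label (107 ± 10.3 and 51.5 ± 0.879 CPM, n = 3, log2 fold −1.07 ± 0.09, adjusted p = 3.58e-10). Snhg10 fell with 63, 77 and 76 counts against 42, 35 and 30 (log2 fold −1.02 ± 0.2, adjusted p = 0.000125). Snhg20 fell with 179, 187 and 195 counts against 145, 150 and 142 (log2 fold −0.38 ± 0.11, adjusted p = 0.00838). None of these 3 had overlapping groups. Snhg14, the long imprinted transcript that runs antisense to Ube3a, moved the other way, with 1037, 1056 and 1161 counts against 1264, 1205 and 1325 (log2 fold 0.21 ± 0.05, adjusted p = 0.00287). The remaining 3 are named to complete the list: Snhg7 at −0.39 ± 0.17 (adjusted p = 0.0545, and 0.0487 without CLP replicate 3), Snhg4 at 0 ± 0.13 (adjusted p = 0.978) and Snhg16 at 0.31 ± 0.35 (adjusted p = 0.492). The list had a median log2 fold of −0.38, beside 0 over all tested genes. Over all tested genes 23.9% were called lower and 23.7% higher, and these shares apply beside each list below too. Its other genes (Snhg9, Snhg17, Dancr and Epb41l4aos) had too few counts to test.

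**Figure D3:**
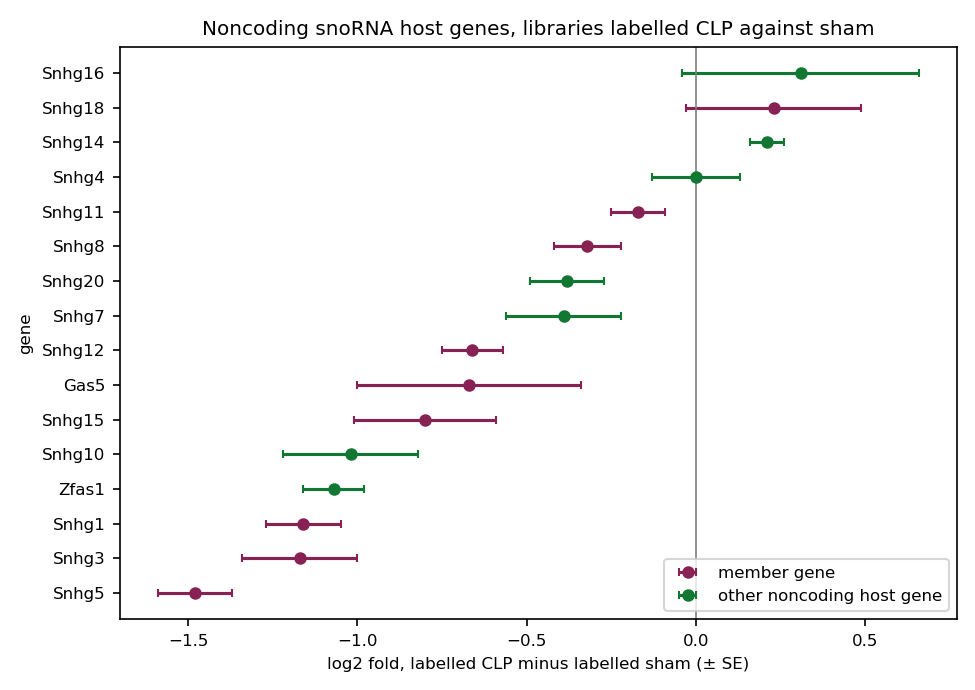
Log2 fold of each tested noncoding host gene, libraries labelled CLP minus sham (x axis, points, with SE as bars), sorted by fold on the y axis and coloured by whether the gene is a member. Folds run from −1.48 for Snhg5 to 0.31 for Snhg16, and Zfas1 and Snhg10 lie beside Snhg1 and Snhg3.

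Protein-coding host genes carry snoRNAs in the introns of ribosomal protein, translation factor and chaperone genes. Of 40 listed, 26 were tested, 15 were lower, 0 were higher and 11 did not pass, with a median log2 fold of −0.17. Of all tested genes 23.9% were called lower and 23.7% higher. The folds of Snhg5, Snhg1 and Snhg3 lay below every fold in the list. Members were chosen with this contrast known, so nothing is read from that. The lowest fold in the list was −0.79. Ncl, which encodes the nucleolar protein nucleolin, had that fold (± 0.08, adjusted p = 4.74e-09), with 596, 664 and 575 counts under the sham label against 356, 355 and 358 under the CLP label. Hspa9, a mitochondrial chaperone gene, fell by a log2 fold of −0.41 ± 0.04 (adjusted p = 1.77e-09). The ribosomal protein genes Rpl32 (−0.44 ± 0.05, adjusted p = 2.51e-08) and Rps13 (−0.39 ± 0.05, adjusted p = 2.76e-07) fell too.

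Most genes of the proteins that package snoRNAs had too few counts to test. Of the 4 box C/D core genes, Snu13 alone was tested and rose by 0.18 ± 0.06 (adjusted p = 0.0156). Of the 4 box H/ACA core genes, Nop10 alone was tested and rose by 0.26 ± 0.09 (adjusted p = 0.0157). Both had overlapping groups. Snu13 did not pass without sham replicate 1 (adjusted p = 0.0809), sham replicate 3 (0.0794), CLP replicate 2 (0.0661) or CLP replicate 3 (0.0538). Nop10 did not pass without sham replicate 2 (0.125), CLP replicate 1 (0.0504) or CLP replicate 3 (0.0667). Of 12 assembly factor genes 6 were tested, 1 was lower and 0 were higher: Pih1d1, a subunit of the chaperone complex that builds these particles, fell by −0.58 ± 0.17 (adjusted p = 0.00621), from 77 to 78 counts down to 50 to 56.

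Genes of nonsense-mediated decay, which removes many spliced host RNAs, were called in both directions. Of 22 listed, 10 were tested, 5 were lower, 1 was higher and 4 did not pass (median log2 fold −0.27). Either call was made for 47.6% of all tested genes, so nothing is read from these counts. Lower were Eif4a3 (−0.4 ± 0.06, adjusted p = 1.84e-06) and Magoh (−0.43 ± 0.09, adjusted p = 0.000282), both of the exon junction complex that marks splice sites on RNA. Upf3b, which links that complex to the decay factors, fell by −0.56 ± 0.15 (adjusted p = 0.00333). Ncbp2, a subunit of the nuclear cap-binding complex, rose from 417, 457 and 508 counts to 853, 890 and 898 (log2 fold 0.92 ± 0.07, adjusted p = 4.19e-11). In this table Rps2, Rpl5 and Eif4a1, genes that every cell uses, are listed at 0 in every library, so a low count need not mean low expression. Upf1, which is also listed at 0, Upf2 and Smg1 were among the genes with too few counts to test.

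Ribosome assembly genes, which act on the ribosomal RNA that snoRNAs modify, had 4 higher and 3 lower of 17 tested among 26 listed (median log2 fold 0.01). Nob1, the nuclease of small-subunit maturation, fell by −0.37 ± 0.07 (adjusted p = 8.15e-05) and the processome gene Imp3 by −0.38 ± 0.08 (adjusted p = 0.00017). Of the large-subunit assembly partners, Bop1 rose by 0.25 ± 0.06 (adjusted p = 0.000785) and Pes1 fell by −0.25 ± 0.06 (adjusted p = 0.00118). Genes of the pathway of mTOR, the kinase that controls translation of pyrimidine-tract RNAs, comprise Mtor itself, its regulators and its targets, and had 1 higher and 4 lower of 11 tested among 18 listed (median −0.07). Eif4ebp1, which encodes a repressor of cap-dependent translation, fell from 78, 64 and 93 counts to 23, 15 and 26 (log2 fold −1.89 ± 0.23, adjusted p = 2.64e-07). The mTOR inhibitor genes Sesn2 (−0.63 ± 0.08, adjusted p = 1.31e-06) and Ddit4 (−0.86 ± 0.1, adjusted p = 0.000446) fell. Larp1, which binds pyrimidine-tract RNAs, rose by 0.63 ± 0.21 (adjusted p = 0.0155). It did not pass without sham replicate 1 (0.0577) or CLP replicate 1 (0.0657), or with the DESeq2 Wald test (0.072).

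A list of other long noncoding RNAs had 7 higher and 2 lower of 12 tested among 15 listed, with a median log2 fold of 0.25. Of all tested genes 23.7% were called higher and 23.9% lower. The list does not stand for RNAs without snoRNAs, since it holds Rian, a host of a box C/D snoRNA cluster. Rian was itself higher (log2 fold 0.22 ± 0.04, adjusted p = 1.28e-05). Sox2ot, which overlaps the Sox2 gene, rose from 159, 160 and 181 counts to 522, 492 and 525 (log2 fold 1.61 ± 0.09, adjusted p = 2.22e-13). Pantr1 rose by 1.44 ± 0.11 (adjusted p = 2.19e-09) and the imprinted Peg13 by 0.28 ± 0.04 (adjusted p = 5.9e-06). Rmst fell from 56, 78 and 82 counts to 27, 29 and 26 (log2 fold −1.41 ± 0.21, adjusted p = 5.29e-06).

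**Figure D4:**
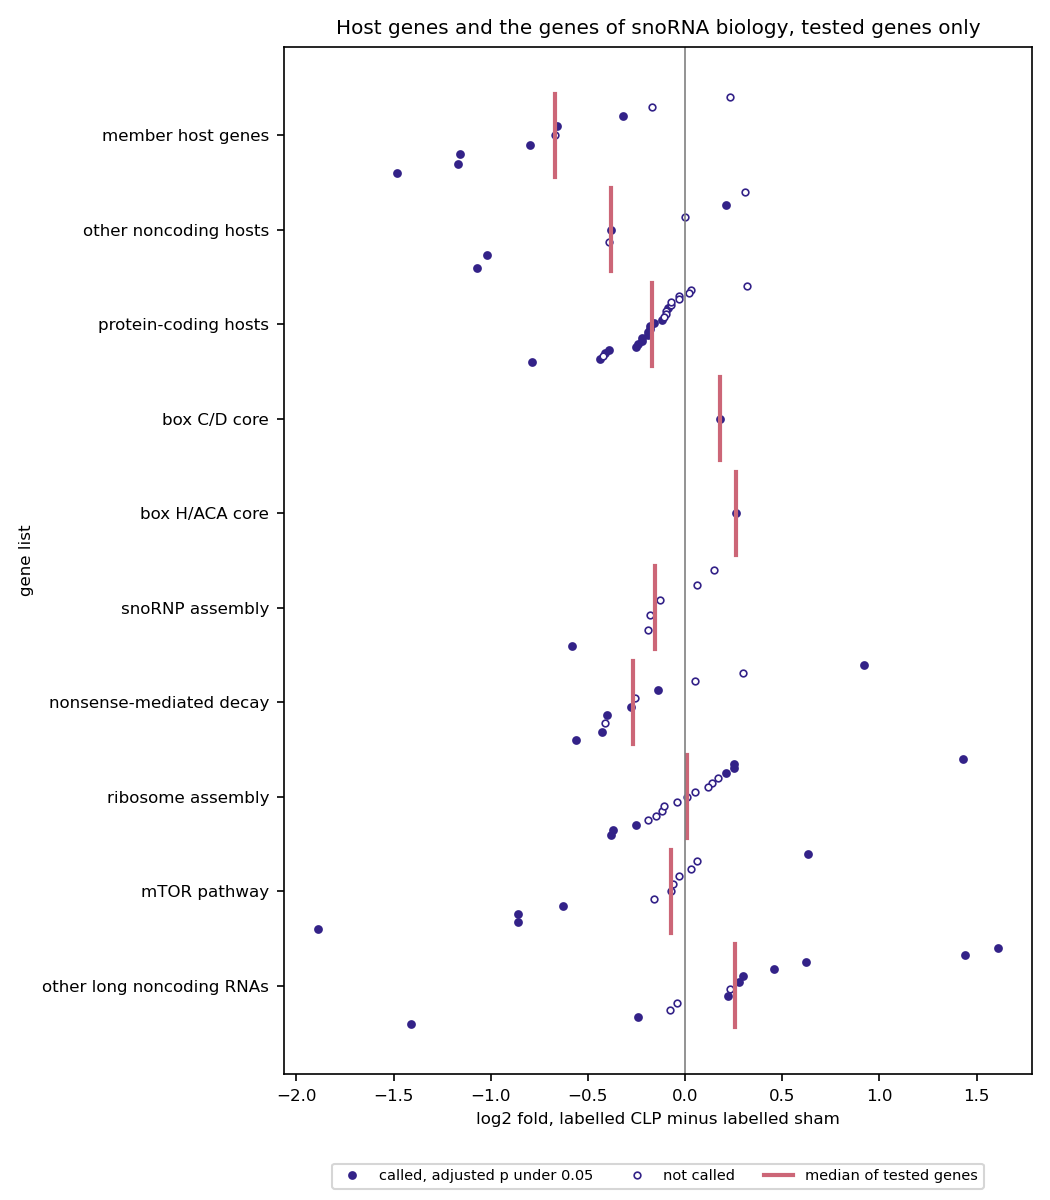
Log2 folds, libraries labelled CLP minus sham (x axis), of the tested genes of each list (y axis), as filled points where the adjusted p was under 0.05 and open points otherwise, with the list median as a bar; within a list the height of a point only separates the points. The members and both lists of other host genes have medians below 0, at −0.67, −0.38 and −0.17, and other long noncoding RNAs one of 0.25. The members were chosen with this contrast known.

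Genes with profiles most like those of 2 members were found over the 6 sham-labelled and CLP-labelled libraries, by the root mean square distance between log2 profiles centred on their own means. Nearest to Snhg11, the member with the highest CPM, were Ptges2 (distance 0.0331), Anxa3 (0.0437) and Irf2bp2 (0.0454). Their log2 folds were −0.19 ± 0.07, −0.23 ± 0.11 and −0.16 ± 0.06. Nearest to Snhg5, the tested member with the largest fold, were B2m (0.0764), the gene of the MHC class I light chain, Tnfrsf1b (0.0774), a tumour necrosis factor receptor gene, and A830021F12Rik (0.0831). B2m had 3561, 3863 and 3621 counts under the sham label and 1147, 1239 and 1330 under the CLP label (log2 fold −1.59 ± 0.05). In the libraries labelled CLP plus extract, B2m spread over 2185, 1517 and 2613 counts, where Snhg5 stayed within 156 to 172. Those libraries varied less among themselves than counting error, so nothing is read from the narrow range of Snhg5.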

How the data were processed

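Per the labels' protocols, total RNA of hippocampus was depleted of ribosomal RNA before library construction. Per the submitters' processing notes, fastp and Salmon were used; the sources used here give no version, setting or build. The authors deposited whole-number counts for 120312 RefSeq transcripts in 9 libraries, and all were matched to 38911 genes through the RefSeq table of GRCm38.p6, used for names, snoRNA positions and promoters. Counts were summed per gene and filtered with filterByExpr (minimum count 10), which left 8213 genes in the 6 libraries labelled CTL and SAE. These were TMM-scaled and fitted with edgeR's quasi-likelihood F test, robust, with Benjamini-Hochberg adjustment and a threshold of 0.05. The SE equals |log2 fold|/√F. CPM uses factors from all 9 libraries.

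The members and gene lists were chosen with earlier results of these data known. From each list up to 4 called genes with the smallest p are named, besides all members, the 3 nearest profiles (log2 of CPM plus 0.5) of 2 members, and Lcn2 and Gfap. On simulated data of this comparison with 7742 genes, 71% of 93 genes changed 2-fold and 95.9% of 97 changed 4-fold were recovered, with 10 false calls. Few genes were changed there, while 47.6% of tested genes were called in the real data, so these rates need not hold for it. Alternatives were limma-voom, DESeq2's Wald test and its size factors, a filter of 1 CPM in 3 libraries or none, all 9 libraries, replicate number as a block, each of 6 libraries left out, and the most-counted transcript. Python 3.11.15 (pandas 2.3.3, scipy 1.17.1, matplotlib 3.10.9) and R 4.3.3 (DESeq2 1.42.0, limma 3.58.1, edgeR 4.0.16) were used.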

Additional observations from a re-analysis of the deposited data

How the results depend on the processing

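Over 14 alternatives no member and no named gene changed direction while called, and the counts of called genes, of called members and of called listed genes stayed within 1.5 times the reported 3912, 6 and 49. Called genes ran from 3543 to 3932 and called members from 5 to 7 when 1 library was left out. The DESeq2 Wald test gave 3186 genes and 7 members, and the fit of all 9 libraries 4318 genes and 7 members, with Gas5 among them; that fit takes its spread in part from the CLP plus extract libraries, which vary less than counting error, and no other fit called Gas5. Snhg1, Snhg3, Snhg5, Snhg12 and Snhg15 passed in all 15 fits, Snhg8 in 13, Snhg11 in 3, Gas5 in 1 and Snhg18 in 0. The labels number the replicates, but same-numbered libraries did not deviate together (correlations −0.013 to 0.026 across genes), and with the replicate block 3892 genes and 6 members passed. Gas5 and Snhg6 had the fewest counts of the members.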
